A study of Mus musculus with 12 samples.

Results

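The 10 genes described here, Lgr5, Olfm4, Ascl2, Smoc2, Gkn3, Axin2, Slc12a2, Tnfrsf19, Rnf43 and Znrf3, are marker genes of the crypt stem cells of the small intestine. They were chosen by gene symbol, and all 10 were found among the 32285 genes of the expression matrices. Small intestinal organoids of wild type BALB/c mice were grown for 4 days alone (control), with Treg cells, with Treg cells and antibodies, or with recombinant cytokines. The Treg groups received 100000 allogeneic FoxP3-GFP+ CD25high Treg cells a well with CD3/CD28 beads and IL-2 at 30 U/ml, and each antibody, anti-IFNγ or anti-IL-10R or both, was used at 10 μg/ml. The cytokine group held no T cells and received rIFNγ at 0.25 ng/ml with rIL-10 at 10 ng/ml. The 6 groups were hashed, sorted as live EpCAM+ cells and pooled, so that every library held cells of every group. The T cells were kept apart from the organoids by tilting the plates, organoids hold no stroma or other immune cells, and the sources used here describe the beads and IL-2 for the cultures with T cells without saying whether the control and cytokine cultures received them.

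Crypt base columnar stem cells divide at the base of the crypt and give rise to transit amplifying (TA) cells, enterocyte progenitors (EP), enterocytes and secretory cells. They are held in the stem cell state by Wnt ligands, whose signal is raised by R-spondins. Lgr5 is a receptor for R-spondins, Rnf43 and Znrf3 are membrane ubiquitin ligases that remove Wnt receptors from the cell surface and are themselves removed when R-spondin binds, and Axin2 is a negative regulator and target of the same pathway. Ascl2 is a transcription factor of the stem cell program, Olfm4 and Gkn3 are secreted products of the crypt base, Smoc2 is a matricellular protein, Slc12a2 is a basolateral sodium-potassium-chloride cotransporter and Tnfrsf19 is a receptor of the tumor necrosis factor family.

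Gkn3 lies on chr6:87383256-87388935 (minus strand, GRCm38), Olfm4 on chr14:79984081-80023139 (plus), Lgr5 on chr10:115450311-115587780 (minus) and Axin2 on chr11:108920349-108950783 (plus). The 250 bases before the annotated start are shown for Gkn3, whose level fell most, and for Axin2, a target of the Wnt pathway. The stretches come from RefSeq (GRCm38.p6, 5′ to 3′ on the strand of the gene). They span chr6:87388936-87389185 (Gkn3) and chr11:108920099-108920348 (Axin2), and no letter is in capitals because neither holds a match to the motifs searched.
Gkn3: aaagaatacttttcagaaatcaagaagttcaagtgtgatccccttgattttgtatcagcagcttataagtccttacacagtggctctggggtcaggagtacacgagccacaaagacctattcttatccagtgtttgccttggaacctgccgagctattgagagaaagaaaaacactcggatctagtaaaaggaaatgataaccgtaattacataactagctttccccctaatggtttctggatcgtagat
Axin2: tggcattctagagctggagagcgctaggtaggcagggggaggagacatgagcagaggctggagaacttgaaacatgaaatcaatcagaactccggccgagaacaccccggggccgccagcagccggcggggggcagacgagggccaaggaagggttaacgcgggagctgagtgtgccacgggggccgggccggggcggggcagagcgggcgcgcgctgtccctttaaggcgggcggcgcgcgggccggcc

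Of the 10 members, 6 had an entry of this kind that was used, Olfm4, Ascl2, Gkn3, Axin2, Tnfrsf19 and Rnf43, in 8 stretches. Entries on chr18, where Slc12a2 lies, were left out for the members and for the interferon readout list. The shares over all stretches did not leave out chr18. None of the 8 held GAAA followed by any 2 bases and GAAA, a core of interferon regulatory factor sites (both strands), and only 1 Tnfrsf19 stretch held CTTTGA, the core bound by TCF/LEF factors (both strands). Over all 32851 stretches of this length, 2.98% held the paired GAAA and 13.8% held CTTTGA. The interferon readout list of 18 genes had 11 genes with an entry, of which 6 held the paired GAAA (Cxcl10, Gbp2, Gbp3, Igtp, Irgm1 and Socs1) and 4 held CTTTGA. The Olfm4 stretch and 1 Rnf43 stretch overlap an annotated exon of the gene. With 2.98% of all stretches holding the paired GAAA, its absence from 8 stretches says little about the members. These matches describe letters in short windows and do not show where a factor binds.

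After removal of cells without a single hashtag, of doublets and of cells outside the limits on depth, 11544 cells remained, between 328 and 955 a culture, where a culture is a group in a replicate. The 3 replicates were separate experiments and gave 18 cultures, each with 14708369 to 41566891 UMIs in all and a median of 41824 to 47801 UMIs a cell. Pairs of libraries shared at most 24 barcodes. Epcam, the sort marker, had a UMI in 99.97% of the cells. In all groups but one, the summed level of 10 T cell markers was at most 1.13 UPM (UMIs of a gene or list per 1000000 UMIs of the cells summed) and no cell had UMIs of 3 or more of 9 such markers (Lck, which epithelial cells held in every group, left out). In the cultures with Treg cells and anti-IL-10R that level was 0.575, 5.19 and 15.5 UPM, within ISC-like cells 0.589, 9.38 and 33.5, and 5 of 2015 cells passed. The part of these cells in the results was not tested. Each transcript is counted by a tag near its 3′ end, so that UPM values are not divided by length.

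Cell classes were assigned without the 10 members and without interferon and antigen presentation genes. The crypt classes were 3715 ISC-like cells (ISC, intestinal stem cell) and 3702 TA-like cells. The other named classes were 1303 enterocyte/EP-like cells, 1071 EP-like cells, 437 cells of the goblet/Paneth-like class and 220 of the endocrine-like class, and 1096 cells had no name. Although they had not been used, Olfm4, Lgr5 and Gkn3 were among the 10 leading genes of 1 cluster of the ISC-like class, Axin2 among those of another and Olfm4 among those of the third. The ISC-like class took in 3 control clusters, 1 led by mitotic genes such as Cenpf, 1 by Olfm4, Dclk1 and Lgr5, and 1 by genes of S phase. In the last the mean of the TA markers (0.80, as a mean log2 fold against all other control clusters) was above that of the stem cell markers (0.55), and in the cluster led by Olfm4, Dclk1 and Lgr5 that of the tuft cell markers (0.77) was above that of the stem cell markers (0.70), so that the class is not free of markers of other cells.

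In the control cultures 9 of the 10 members were highest, among the 4 classes with enough cells, in ISC-like cells. Lgr5 stood at 114.7 ± 24.4 UPM (SD, n = 3, as for all values of this kind) in ISC-like cells and at 25.8 ± 11.9 in the TA-like class. It was at 7.58 ± 7.82 in EP-like cells and 1.08 ± 0.380 in enterocyte/EP-like cells. Olfm4 ran from 2199.9 ± 323 UPM in ISC-like cells, through 401 ± 198 in the TA-like class, to 20.1 ± 5.56 and 10.1 ± 3.69 in EP-like and enterocyte/EP-like cells. The ISC-like and TA-like ranges did not overlap for any of these 9 genes. The share of all genes with such a pattern is not given here. Between the EP-like and enterocyte/EP-like classes the ranges of Lgr5, Ascl2, Gkn3 and Rnf43 overlapped, and no order is given for them.

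Gkn3 was at 36.3 ± 12.1 UPM in ISC-like cells and at 8.91 ± 3.69 in TA-like cells, and in the EP-like and enterocyte/EP-like classes it was at 0.788 ± 0.699 and 0.604 ± 1.05. Ascl2 had the same pattern, with 45.5 ± 8.55, 21.8 ± 10.3, 2.20 ± 1.85 and 1.80 ± 1.23 UPM. Among the same 4 classes the ubiquitin ligase genes had the smallest ratios of ISC-like to enterocyte/EP-like level: Rnf43 was at 96.9 ± 16.1 UPM in ISC-like and 45.5 ± 11.2 in enterocyte/EP-like cells, and Znrf3, at 73.0 ± 12.4 in ISC-like cells, was at 94.3 ± 47.3 in goblet/Paneth-like and 92.8 ± 50.1 in endocrine-like cells, with wide spreads that overlap the ISC-like range. Tnfrsf19 had 32 UMIs in 26 of 11544 cells, at most 0.822 UPM in any ISC-like sum, and was too low to be tested in any class. These levels describe classes that were built from the same cells and carry no test.

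**Figure D1:**
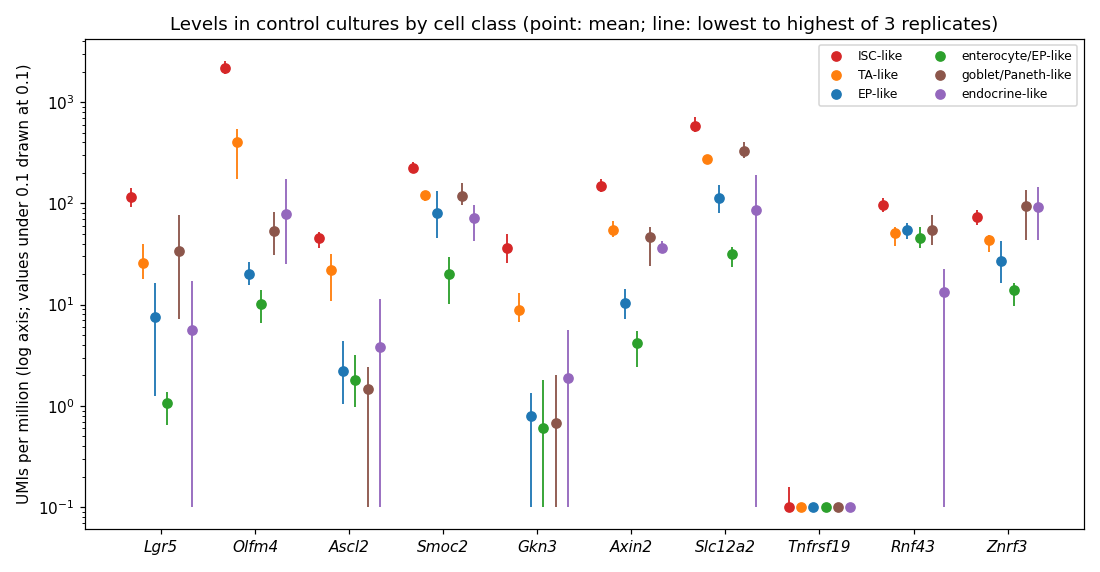
Levels of the 10 members in the control cultures by cell class, in UPM on a log axis; points are means and lines run from the lowest to the highest of 3 replicates. Olfm4 falls from 2199.9 in ISC-like to 10.1 in enterocyte/EP-like cells, Rnf43 from 96.9 to 45.5, and Tnfrsf19 lies at the floor of the plot.

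To ask what IFNγ and IL-10 do without T cells, the cytokine cultures were compared with control. Over all cells, all 9 members tested were lower with rIFNγ and rIL-10, and all 9 were called (edgeR quasi-likelihood test, Benjamini-Hochberg adjusted over all genes), where 36.0% of 14907 genes tested were called and 17.4% were called lower. The log2 fold changes ran from -5.06 for Gkn3 and -1.33 for Olfm4 to -0.42 for Rnf43 and -0.23 for Znrf3, with Slc12a2 at -0.84, Ascl2 at -0.83, Smoc2 at -0.81, Axin2 at -0.69 and Lgr5 at -0.66. The median over the 9 was -0.81, and over all genes -0.005. Over all cells, fewer stem cells and less RNA of a gene in each stem cell cannot be told apart. Without the replicate term 5 of the 9 were called, and 4 without replicate 3.

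Within ISC-like cells, of 9 members tested, 6 fell, Gkn3, Olfm4, Slc12a2, Smoc2, Axin2 and Rnf43, and Lgr5, Ascl2 and Znrf3 did not pass the test, where 21.9% of 12273 genes were called and 10.9% were called lower. Without the replicate term Gkn3 and Olfm4 alone stayed under the threshold, so that 2 were called. The ISC-like class held 242, 268 and 92 control cells and 83, 189 and 61 cytokine cells. Of 438 tested genes among those used to assign the classes, 160 were called in this comparison within ISC-like cells, so that membership of the class can itself depend on the treatment; how far it does was not tested, and the shares of the classes are not compared between groups.

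**Figure D2:**
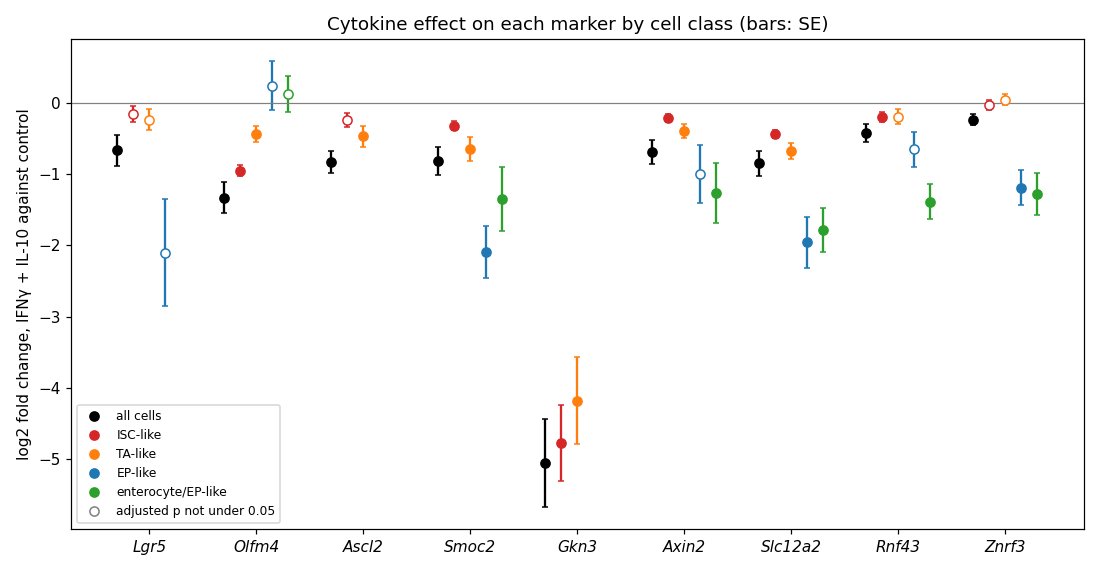
Cytokine effect on each member as a log2 fold change (rIFNγ with rIL-10 against control) over all cells and in 4 classes; bars are standard errors and open points did not reach an adjusted p under 0.05. Gkn3 lies between -4.18 and -5.06 where it was tested, while Lgr5 in ISC-like cells is at -0.16.

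Gkn3 fell to a level of few UMIs with the cytokines. In ISC-like cells it was at 33.5, 25.8 and 49.6 UPM in the 3 control cultures (426, 307 and 198 UMIs) and at 1.14, 1.02 and 1.39 UPM with the cytokines (5, 9 and 4 UMIs). Every cytokine culture lay far below every control culture. The loss within replicates was 96.6%, 96.1% and 97.2%, and the log2 fold change was -4.78 ± 0.53 (SE), adjusted p = 1.5e-06. The level left was within the range of the enterocyte/EP-like cells of control cultures, 0 to 1.81 UPM (0, 0 and 3 UMIs), a class that should lack the gene. It was above the level of that class in the cytokine cultures of the same replicate, 0, 0 and 0.613 UPM (0, 0 and 1 UMIs). The fold change may be limited by background, which was not tested. Gkn3 passed the filter on low counts through the groups without the cytokines.

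The mean was lower in each of the 3 clusters of the class. Gkn3 went from 29.7 ± 8.22 to 1.29 ± 0.302 UPM in the ISC-like cluster led by mitotic genes, from 47.3 ± 12.1 to 2.17 ± 1.58 in the cluster led by Olfm4 and Lgr5, and from 37.8 ± 15.1 to 0.204 ± 0.352 in the S phase cluster. The UMIs behind these cluster means are not given here. In TA-like cells Gkn3 went from 6.70, 6.85 and 13.2 UPM (61, 98 and 88 UMIs) to 0.410, 0.539 and 0.158 (3, 8 and 1 UMIs), a log2 fold change of -4.18 ± 0.61 (adjusted p = 3.7e-05).

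Olfm4 fell in ISC-like cells too. It was at 1899, 2159 and 2542 UPM in the control cultures and at 1033, 1188 and 1124 UPM in the cytokine cultures. The ranges did not overlap, and the level was 45.6%, 45.0% and 55.8% lower in the 3 replicates (log2 fold change -0.95 ± 0.08, adjusted p = 3.4e-08). In TA-like cells the change was -0.43 ± 0.12 (adjusted p = 0.0084), and there the ranges of 175 to 542 and 142 to 381 UPM overlapped. In enterocyte/EP-like cells Olfm4 was at its low level in both groups, 13.99, 9.64 and 6.65 UPM in control and 10.7, 13.1 and 12.3 UPM with cytokines (0.13 ± 0.25, adjusted p = 0.76).

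Of the members that act in the Wnt and R-spondin pathway, the receptor gene and 1 ligase gene did not pass the test in ISC-like cells. Lgr5 in ISC-like cells was at 111.7, 140.4 and 91.9 UPM in control and at 112.5, 119.0 and 72.1 UPM with cytokines. The ranges overlapped, replicate 1 was level, and the log2 fold change of -0.16 had a 95% interval from -0.41 to 0.09 (adjusted p = 0.35), which does not reach the fold change of Olfm4. Znrf3 was at 85.7, 72.4 and 60.8 UPM in control and 91.7, 65.2 and 57.8 with cytokines, with an interval from -0.19 to 0.13.

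Axin2 fell by a small amount in ISC-like cells, from 173.2, 143.0 and 129.5 to 127.1, 144.3 and 105.6 UPM (-0.21 ± 0.06, adjusted p = 0.017), with overlapping ranges and no fall in replicate 2. It lost its call without replicate 1 (-0.10, adjusted p = 0.45) and without replicate 3 (adjusted p = 0.13). Rnf43, at -0.20 ± 0.07, passed narrowly (adjusted p = 0.049) and lost its call without replicate 1 (adjusted p = 0.42), without replicate 3 (adjusted p = 0.17), in DESeq2 (adjusted p = 0.063) and without the least clear cells (adjusted p = 0.14). Ascl2 was at 36.1, 52.8 and 47.6 UPM in control and at 26.5, 49.3 and 40.1 with cytokines, lower in 3 of 3 replicates, and just missed the threshold (-0.24, 95% interval -0.44 to -0.03, adjusted p = 0.076).

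The cotransporter gene Slc12a2 and the matrix protein gene Smoc2 passed the test in each of the 4 classes. Without the replicate term neither passed in ISC-like cells nor Smoc2 in the TA-like class, and Smoc2 in enterocyte/EP-like cells was at -0.50 without replicate 1 (adjusted p = 0.54), at -2.84 without replicate 2 and at -1.01 without replicate 3 (adjusted p = 0.28). In ISC-like cells Slc12a2 was at 714, 541 and 509.8 UPM in control and at 459.5, 434 and 387 with cytokines, with no overlap (-0.43 ± 0.06, adjusted p = 9.7e-06). Smoc2 went from 257.0, 199.0 and 213.6 to 192.3, 173.3 and 161.3 UPM, also without overlap (-0.32 ± 0.06, adjusted p = 0.00089). In TA-like cells, where 25.9% of genes were called and 12% were called lower, 6 of 9 members fell: Gkn3, Slc12a2, Smoc2, Ascl2 (-0.47, adjusted p = 0.023), Olfm4 and Axin2 (-0.39, adjusted p = 0.0050). Without the replicate term 2 of these were called.

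**Figure D3:**
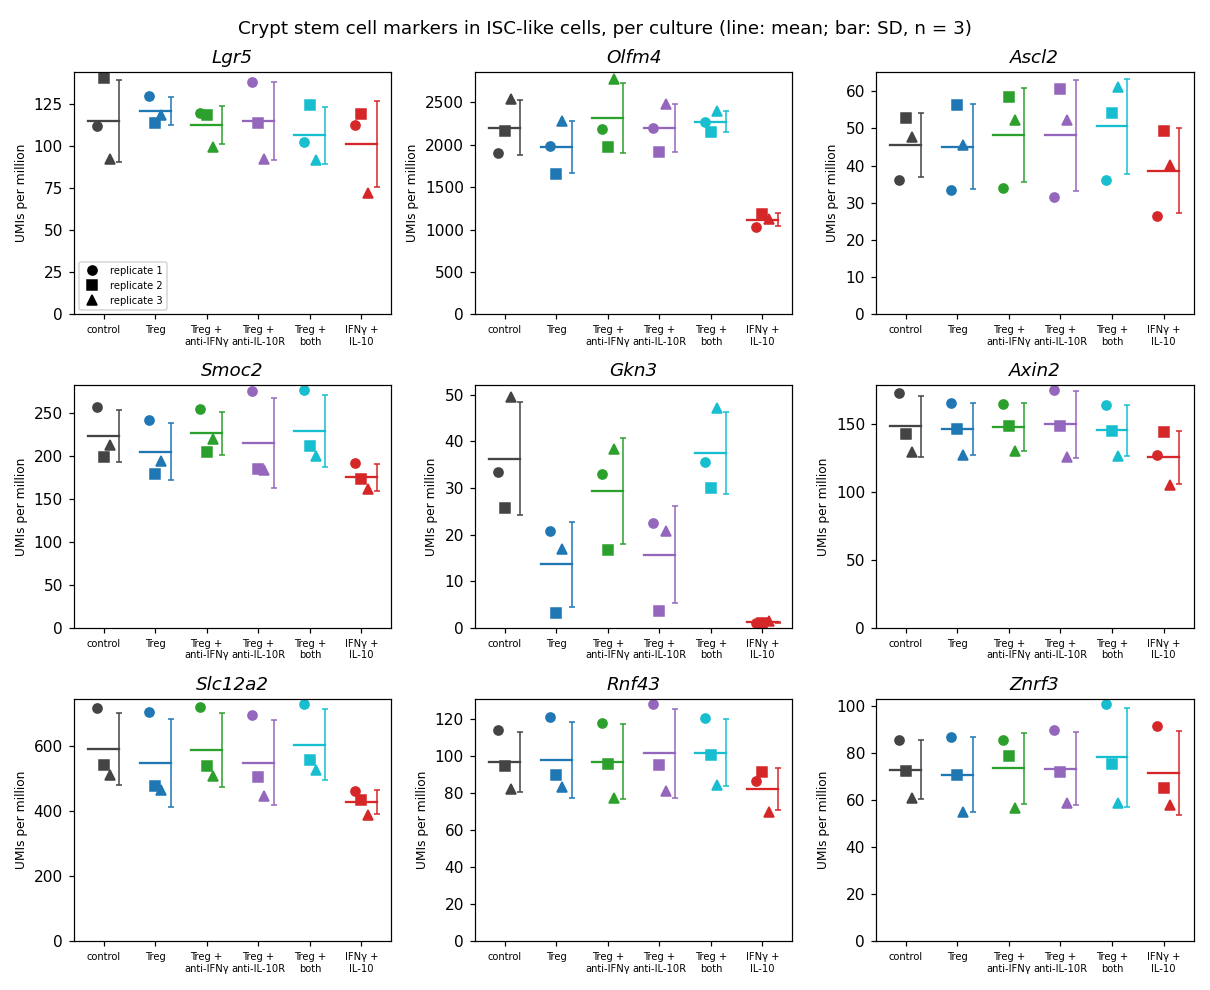
Levels of 9 members in ISC-like cells in UPM, for the 6 groups; symbols are replicates, lines are means and bars are SD (n = 3). Gkn3 is between 1.02 and 1.39 in the cytokine cultures and between 3.28 and 20.8 in the Treg cultures, Olfm4 is between 1033 and 1188 in the cytokine cultures, and the Lgr5 and Znrf3 ranges overlap across the groups.

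In the differentiated classes several members with low levels fell. Whether the make-up of these classes changed with the cytokines was not tested. In enterocyte/EP-like cells 5 of 6 tested were called lower, Slc12a2 (-1.79 ± 0.30), Rnf43 (-1.38 ± 0.25), Smoc2 (-1.34 ± 0.45), Znrf3 (-1.28 ± 0.29) and Axin2 (-1.26 ± 0.42), where 26.4% of 9969 genes were called and 12.5% called lower. Smoc2 was at 29.6, 10.1 and 19.9 UPM in control and at 4.41, 15.3 and 2.45 with cytokines, so that it rose in replicate 2 and the ranges overlapped. Axin2 had 14, 12 and 4 UMIs in control and 10, 9 and 1 with cytokines. In EP-like cells 3 of 7 fell, Smoc2 (-2.09 ± 0.37), Slc12a2 (-1.96 ± 0.36) and Znrf3 (-1.19 ± 0.24), where 16.6% of 9801 genes were called and 7.50% called lower. Single replicates moved these values: without replicate 1 and without replicate 2, Smoc2 was at -1.21 and -3.31, Slc12a2 at -1.27 and -3.41, and Znrf3 at -0.63 (adjusted p = 0.23) and -1.81. Rnf43 in enterocyte/EP-like cells was at 57.9, 36.3 and 42.3 UPM in control and at 14.1, 24.5 and 15.3 with cytokines, with no overlap. In this class 2 members were called without the replicate term, 2 without replicate 1 and 3 in DESeq2.

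The difference between the classes was tested directly with limma on the log2 level of ISC-like minus that of enterocyte/EP-like cells in the same culture, where 12.3% of 9807 genes were called. Of the 6 members that could be tested, 4 differed. Slc12a2 fell by less in ISC-like than in enterocyte/EP-like cells (difference 1.33 ± 0.32 on the log2 scale, adjusted p = 0.020), as did Rnf43 (1.12 ± 0.26, adjusted p = 0.019). Znrf3 differed in the same direction (1.19 ± 0.28, adjusted p = 0.020), but in ISC-like cells no fall of it was called (edgeR, -0.03, adjusted p = 0.81). Olfm4 went the other way (-1.23 ± 0.27, adjusted p = 0.016). Its enterocyte/EP-like levels were low, at 6.65 to 13.99 UPM in control. Its edgeR log2 fold change there, 0.13, had a 95% interval from -0.44 to 0.69, which does not reach the -0.95 of ISC-like cells. Axin2 (0.87, adjusted p = 0.063) and Smoc2 (1.26, adjusted p = 0.10) did not pass. None of the 6 was called without replicate 1 or without replicate 3, where 0.0204% and 0.286% of all genes were called. The differences had the same sign there (Olfm4 -1.59 and -0.87, Slc12a2 1.51 and 1.06, Znrf3 0.89 and 1.17, Rnf43 0.90 and 1.06). Without replicate 2 Olfm4 was not called (adjusted p = 0.094) while Smoc2 was (adjusted p = 0.0083).

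The Treg co-cultures were compared with control to ask what the products of the Treg cells do to the epithelium. Over all cells no member was called, where 0.161% of genes were. All 9 tested had a log2 fold change below 0, from -1.58 for Gkn3 (adjusted p = 0.34) to -0.02 for Rnf43. The share of all genes below 0 is not given here. Gkn3, Smoc2 and Slc12a2 were lower than control in each replicate, and the other members tested were not. Lgr5 was at 1.11, 0.670 and 1.18 times control in the 3 replicates. In ISC-like cells Gkn3 fell (-1.39 ± 0.28, adjusted p = 0.032) and was the only member called, where 0.253% of genes were. It was at 20.8, 3.28 and 16.8 UPM (292, 31 and 82 UMIs), against 33.5, 25.8 and 49.6 in control. The ranges did not overlap, and the loss was 38.0%, 87.3% and 66.0% in the 3 replicates.

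The call for Gkn3 did not hold in DESeq2 (adjusted p = 0.091), without replicate 3 (adjusted p = 0.75) or without the replicate term (adjusted p = 1.00), and leaving out replicate 2 gave a log2 fold change of -0.98. Members other than Gkn3 lay between -0.16 (Olfm4, 95% interval -0.33 to 0.002) and 0.06 (Lgr5, -0.17 to 0.30) in ISC-like cells. No member was called in TA-like cells (0.305% of genes called), EP-like cells (0.0918%) or enterocyte/EP-like cells (0.0903%). In TA-like cells Gkn3 was at 5.10, 0.636 and 5.46 UPM, against 6.70, 6.85 and 13.2 in control (-1.40 ± 0.39, adjusted p = 0.18).

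The antibodies block IFNγ and the IL-10 receptor, to ask for the part of each signal in the co-culture. With both antibodies Gkn3 in ISC-like cells was at 35.5, 29.9 and 47.1 UPM, above every Treg culture and within the control range. It rose against Treg alone (1.46 ± 0.27, adjusted p = 0.010; 0.546% of genes called), by DESeq2 as well (adjusted p = 0.032), and did not pass without replicate 3 (adjusted p = 0.33) or without the replicate term (adjusted p = 1.00). Over all cells no member was called in that comparison (0.201%), with Gkn3 at 1.81 (adjusted p = 0.14). Against control, the cultures with both antibodies had no member called over all cells (0% of genes called, 450 genes at an unadjusted p under 0.05, and 1 gene in DESeq2) or in ISC-like cells (0.00815%), where Gkn3 was at 0.07 with a 95% interval from -0.45 to 0.60.

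Of the single antibodies, anti-IFNγ gave Gkn3 levels of 32.9, 16.7 and 38.4 UPM in ISC-like cells and anti-IL-10R gave 22.5, 3.67 and 20.9 UPM. The anti-IFNγ cultures were above the Treg culture of the same replicate in 3 of 3 replicates (1.06 ± 0.28, adjusted p = 0.17; 0.244% of genes called), and no member passed, nor over all cells (0.188%). The anti-IL-10R cultures were also above it in 3 of 3 replicates in ISC-like cells, at 1.09, 1.12 and 1.24 times the Treg level. With anti-IFNγ these ratios were 1.59, 5.09 and 2.28. In TA-like cells the anti-IL-10R cultures were below the Treg culture of the same replicate in 3 of 3 replicates, and no member was called. Against Treg alone, anti-IL-10R gave no call of any gene over all cells or in ISC-like cells (0% each by edgeR, with 303 and 408 genes at an unadjusted p under 0.05; in DESeq2 0 over all cells and 1 in ISC-like cells), and Gkn3 was at 0.18 ± 0.31. The single antibodies were set against each other in a comparison added after values had been seen. In TA-like cells Gkn3 was at 5.36, 5.67 and 14.2 UPM with anti-IFNγ and at 3.23, 0.318 and 3.39 UPM with anti-IL-10R, with no overlap. The difference passed the test there (1.93 ± 0.43, adjusted p = 0.023; 1.13% of genes called), and its values with a replicate left out are not given here. It did not pass in ISC-like cells (0.88 ± 0.27, adjusted p = 0.18; 0.676%) or over the whole of the cells (1.40 ± 0.42, adjusted p = 0.24; 0.550%).

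The interferon readout, the summed level of 18 interferon-induced genes, was high in the groups where Gkn3 was low. In ISC-like cells it was 62.1 to 78.6 UPM in control, 64.6 to 84.7 with anti-IFNγ and 59.8 to 81.0 with both antibodies, so that these groups overlapped. It was 180.4, 1016 and 386 UPM in the Treg cultures, 299, 1450 and 1010.0 with anti-IL-10R, and 2883 to 4505 with the cytokines. Replicate 2 of the Treg group had the highest readout and the lowest Gkn3 of that group, and the same was so with anti-IL-10R. Between the Treg and anti-IL-10R groups the order was not inverse in ISC-like cells. In each replicate the readout there was higher with anti-IL-10R than with Treg cells alone. Gkn3 was 1.09, 1.12 and 1.24 times the Treg level. Over all cells the readout was higher with anti-IL-10R in each replicate too, but Gkn3 was 1.13, 0.875 and 0.865 times the Treg level. In TA-like cells Gkn3 was lower with anti-IL-10R in 3 of 3 replicates, at 3.23, 0.318 and 3.39 UPM against 5.10, 0.636 and 5.46. The readout of TA-like cells is not given here. Whether the signal accounts for the Gkn3 level was not tested. Over the same 18 cultures Lgr5 ran from 72.1 to 140.4 UPM, and its range in each group overlapped that in control.

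**Figure D4:**
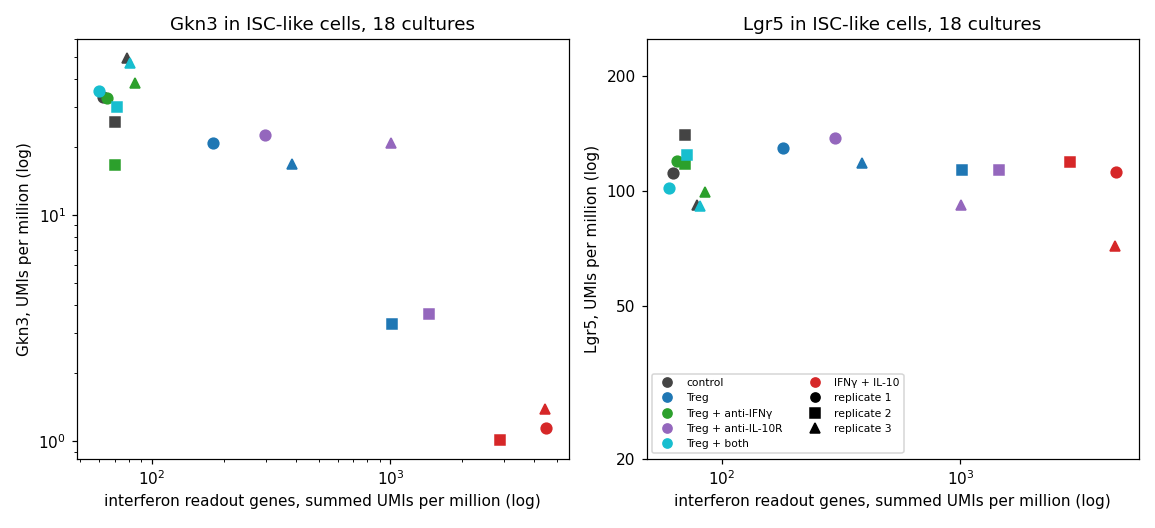
Gkn3 (left) and Lgr5 (right) in ISC-like cells against the summed level of 18 interferon readout genes, each point a culture, colors for groups and symbols for replicates, both axes in UPM on a log scale. Gkn3 is lowest, at 1.02 to 1.39, in the cytokine cultures with a readout of 2883 to 4505, and is at 3.28 and 3.67 in the replicate 2 cultures with Treg cells alone and with anti-IL-10R.

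The share of cells with a UMI was compared as well. With every cell thinned to 10000 UMIs, Gkn3 was found in 23.9% ± 8.03 of ISC-like control cells, 12.5% ± 8.18 with Treg cells, 26.2% ± 7.70 with both antibodies and 1.38% ± 1.95 with the cytokines. In enterocyte/EP-like cells, which should lack it, the share was 0.758% in control and 0.833% with the cytokines. Both of these shares came from replicate 3 alone, with 3 and 1 UMIs before thinning, so that they measure the background poorly. The median depth was 47082 and 48818 UMIs in ISC-like cells and 38412 and 40077 in enterocyte/EP-like cells (control and cytokines). Without thinning the shares in ISC-like cells were 54.5% and 4.69% for control and cytokines. Lgr5 was found in 51.5% ± 8.18 of thinned ISC-like control cells and 48.8% with the cytokines (36.1% to 59.8%), and Olfm4 in 91.3% ± 3.33 and 86.5% ± 4.18. The exact two-sided permutation test over 3 against 3 replicates gave p = 0.1 for Gkn3, the smallest it can give, p = 0.9 for Lgr5 and p = 0.3 for Olfm4, and no share can reach 0.05 with it. For Treg cells against control the exact permutation test gave p = 0.2 for Gkn3 with thinning and p = 0.1 without it (-25.9 points), and for both antibodies against Treg alone p = 0.1 either way (13.7 points with thinning).

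**Figure D5:**
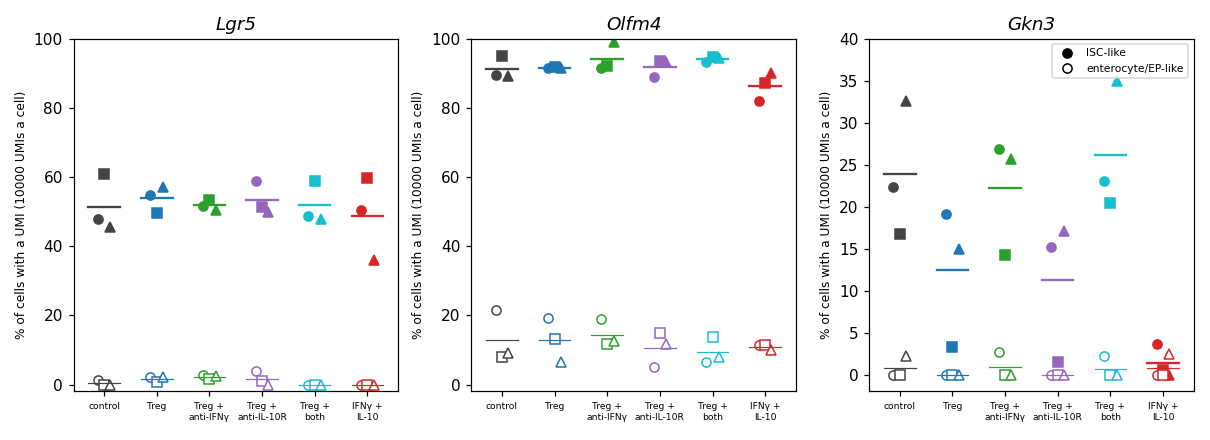
Percent of cells with at least 1 UMI of Lgr5, Olfm4 and Gkn3 after thinning to 10000 UMIs a cell, by group and replicate (symbols; lines are means), filled for ISC-like and open for enterocyte/EP-like cells. In ISC-like cells the Gkn3 share is 23.9% in control and 1.38% with the cytokines, while the Lgr5 shares of 51.5% and 48.8% overlap.

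Other genes of the pathway and of the crypt were taken from lists, which were chosen with earlier results of these data known. Of 25 tested Wnt and R-spondin signaling genes, 5 rose and 4 fell over all cells with the cytokines and 4 rose and 3 fell in ISC-like cells, where the median was 0.02 against 0.01 over all genes. Over all genes 36.0% and 21.9% were called, so that these counts lie near the background. In ISC-like cells Tcf7l2, a TCF/LEF factor, rose (0.46 ± 0.06, adjusted p = 1.1e-05), as did the tankyrase gene Tnks (0.42, adjusted p = 0.00037) and the co-activator gene Bcl9 (0.32, adjusted p = 0.033), and Dvl3 did not pass (-0.14, adjusted p = 0.40). Of 11 Wnt target genes, 3 rose and 1 fell. The cyclin gene Ccnd1 rose (1.18 ± 0.11, adjusted p = 1.2e-07), as did Prox1 (1.80 ± 0.38, adjusted p = 0.0015), the progenitor factor Sox9 fell (-0.62 ± 0.07, adjusted p = 1.2e-06), and Cd44 was at -0.05 (adjusted p = 0.73).

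Of 17 other crypt stem genes tested in ISC-like cells, some of which served as markers of the class, 7 fell and 1 rose with the cytokines, with a median of -0.21. In these cells 21.9% of all genes tested were called with the cytokines and 10.9% were called lower. Clca3b (-0.71 ± 0.06), Clic6 (-0.90 ± 0.17), Noxa1 (-0.84 ± 0.18) and the water channel gene Aqp4 (-0.53 ± 0.09) were among those that fell, and Clca3b was the only gene of the list called with both antibodies against Treg alone, where it rose (0.31 ± 0.06, adjusted p = 0.015). Of 5 regenerative genes tested in ISC-like cells, 2 rose, Ly6a (8.34 ± 0.86), which encodes Sca-1, and Areg (2.13 ± 0.33), an EGF receptor ligand, and 2 fell, Clu (-2.15 ± 0.57) and Ccn1 (-1.10 ± 0.22). All 16 interferon readout genes tested in ISC-like cells rose with the cytokines and 7 with Treg cells, where 0.253% of all genes were called. Irf1, a transcription factor gene induced by interferon, rose by 4.65 ± 0.29 with the cytokines and 2.85 ± 0.31 with Treg cells on the log2 scale. The immunoproteasome genes Psmb8 (6.01 and 3.19) and Psmb9 (4.15 and 1.75) and Ciita, the activator of class II genes (7.30 and 4.11), rose in both too. With both antibodies against Treg alone, where 0.546% of all genes were called, 8 of the 16 fell, among them Irf1 (-2.84) and Ciita (-4.75).

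The genes most like Lgr5 and Olfm4 were sought over 72 sums (4 classes in 18 cultures) among 9313 genes by Pearson's r of log2 levels, which mostly follows the differences between classes. Those of Lgr5 were Rgmb (0.956), Axin2 (0.953), Olfm4 (0.943), Mcc (0.941) and Nav1 (0.940). Those of Olfm4 were Msi1 (0.972), Mcc (0.965), Rgmb (0.963), Cdo1 (0.962) and Ascl2 (0.962), and the nearest to Gkn3 were Anapc13 (0.872) and Tent5c (0.859). Against Lgr5, the other members ran from 0.380 (Tnfrsf19), 0.715 (Rnf43) and 0.765 (Gkn3) to 0.953 (Axin2). The sums share libraries and classes, and these values are a description.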

How the data were processed

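The authors sequenced droplet 3′ libraries of pooled, hashed cells, mapped the reads with Cell Ranger 7.0.0 (per the labels) to GRCm38 and deposited whole-number UMI counts per gene, hashtag and barcode, without normalization; the authors also name Seurat 4.0.5. The counts of 5 libraries (replicates 1 and 2 in pairs, replicate 3 alone) were used, and 1 library that the study excluded was not. Depth was 128917456 to 223155304 UMIs a library. Hashtags were called with HTODemux (Seurat 5.3.0, quantile 0.99). The study's limits on cells were applied (UMIs between 10000 and 90000, detected genes between 3000 and 10000, a mitochondrial share no higher than 8.5%). Further doublets (1.64% to 7.25% of singlets) were called against simulated doublets, a weak score (area under the curve 0.574 to 0.775 against hashtag doublets). Control cells were clustered without the members and 296 interferon and antigen presentation genes, and every cell took the class of the control cluster it correlated with best over 487 genes; with a replicate left out, 79.5% to 82.8% of control cells kept their class. Crypt clusters were named after they were seen, by a mean of the stem list above 0.5; the planned enterocyte-like class is the enterocyte/EP-like one, since its leading genes came from both lists.

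UMI counts were summed per class and culture and tested with edgeR 4.0.16 (R 4.3.3; quasi-likelihood, TMM, filterByExpr, replicate as a block, all 6 groups in 1 fit, threshold 0.05) for 6 planned comparisons and 1 added after values had been seen, over all cells and in 4 classes with at least 10 cells in every culture. The goblet/Paneth-like and endocrine-like classes had as few as 8 and 4 cells and were not tested. Replicates were separate experiments. Deviations of same-replicate cultures from their group means correlated at 0.32 to 0.50 on average (lowest pair 0.066). Those of other replicates were at -0.16 to -0.24, values that follow from taking off the group means and add no information. Standard errors are the fold change over the root of F, and 95% intervals use them with 10 degrees of freedom. The difference between classes was fitted with limma 3.58.1 (prior count 2). DESeq2 1.42.0, RLE factors, no filter, other limits on cells and doublets, equal cell numbers and left-out replicates were alternatives. The fits were tested on simulated data. The likeness measure took log2 of UPM with 1 added, for genes with a mean of 5 or more. The named list genes are up to 4 of each list with the smallest adjusted p with the cytokines over all cells. The result of 1 further motif search is not reported here. The members and lists were chosen with earlier results of these data known.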

Additional observations from a re-analysis of the deposited data

Results flagged for a closer look

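In 4 of the 6 members tested the cytokine effect differed between ISC-like and enterocyte/EP-like cells by a test of the difference itself (limma, adjusted over all genes, of which 12.3% were called). On the log2 scale the difference was -1.23 for Olfm4, which fell in ISC-like cells and was not called in enterocyte/EP-like cells. Olfm4 was low there, at 13.99, 9.64 and 6.65 UPM in control (43, 21 and 11 UMIs), and the 95% interval of its edgeR log2 fold change ran from -0.44 to 0.69. The difference was 1.12 for Rnf43 and 1.33 for Slc12a2, which fell further in enterocyte/EP-like cells. Whether the make-up of that class changed with the cytokines was not tested. For Znrf3, which fell in enterocyte/EP-like cells and was not called in ISC-like cells, it was 1.19. The enterocyte/EP-like levels were low, at 3.68 to 57.9 UPM over the control and cytokine cultures for these last 3 genes, and none of the 4 differences was called without replicate 1 or without replicate 3, where 0.0204% and 0.286% of all genes were called and the 4 differences kept their signs (for Olfm4 -1.59 and -0.87, for Slc12a2 1.51 and 1.06). Groups of 3 replicates were too small for a search for outlying cultures.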

How the results depend on the processing

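Counts of members called with the cytokines moved by over 1.5 times in several settings. Without the replicate block, on which the paired fits rest, they were 5 rather than 9 over all cells, 2 rather than 6 in each of the ISC-like and TA-like classes and 2 rather than 5 in enterocyte/EP-like cells, and for Treg against control in ISC-like cells 0 rather than 1. DESeq2 called 3 in enterocyte/EP-like cells and 0 for Treg against control in ISC-like cells. With no filter on low counts, 6 rather than 3 were called in EP-like cells, 2 for Treg against control in each of the same crypt classes and 1 for both antibodies against Treg over all cells. That fit gave implausibly small p-values for low genes such as Gkn3, and its added calls are not read as results. With 1 replicate left out, the counts ran from 4 (without replicate 3) to 8 over all cells and from 2 (without replicate 1) to 4 in enterocyte/EP-like cells with the cytokines. They ran from 0 (without replicate 3) to 1 in ISC-like cells and from 0 to 1 (without replicate 1) in TA-like cells for Treg against control, from 0 to 2 (without replicate 1) for both antibodies against Treg over all cells, and from 0 (without replicate 1 or 3) to 4 for the difference between classes. The difference in the Lgr5 share ran from -5.31 to 0.818 points, above 0 without replicate 3. With fewer replicates, fewer samples enter the fit; the cause of the other changes was not tested.

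Members that had not passed changed sign in 6 settings. Leaving out 1 replicate, Znrf3 ran from -0.13 to 0.064 in ISC-like cells and from -0.023 to 0.11 in TA-like cells, and Olfm4 from -0.59 to 0.58 in EP-like and from -0.049 to 0.54 in enterocyte/EP-like cells. Without the least clear 20% of cells, Znrf3 was at -0.019 in TA-like and Olfm4 at -0.32 in EP-like cells. Gkn3 with the cytokines in ISC-like cells lay between -4.97 and -4.45 and Olfm4 was at -0.87 or lower, over all alternatives. Planned tests of the goblet/Paneth-like class were not run, for want of cells. The low levels of members in differentiated classes, and of Gkn3 with the cytokines, rest on few UMIs, and smaller changes there were not detectable at this depth.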
